A study of Mus musculus with 2 samples.

Results

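The miRNAs described here are 10 broadly expressed species outside the large miRNA families: mmu-miR-26a-5p, mmu-miR-26b-5p, mmu-miR-22-3p, mmu-miR-191-5p, mmu-miR-425-5p, mmu-miR-185-5p, mmu-miR-186-5p, mmu-miR-140-3p, mmu-miR-210-3p and mmu-miR-210-5p. The prefix for mouse is left out below. They were chosen by name, and all 10 were on the array, each with 1 spot among 1900 miRNA probes. Their levels were compared between 2 cultures of B16, an established mouse melanoma cell line. One culture was given a small interfering RNA (siRNA), a short duplex that directs the decay of a matching mRNA, against Fam222B, the other a control siRNA, and total RNA was taken 48 h later and hybridised to a 1-colour miRNA array. Both cultures were grown in DMEM with 5% fetal bovine serum and had been kept for 24 h before a lipid reagent (Lipofectamine RNAiMAX) delivered the siRNA, so both carry the transfection itself. Each group had 1 array, which leaves every value without replicate error and every comparison without a test. The probes do not measure the Fam222B mRNA, and the knockdown was not analysed here.

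A miRNA is cut from a hairpin in a longer transcript, and 1 of its strands, the 5p or the 3p arm, is usually kept in an Argonaute protein. Bases 2 to 8 of that strand, the seed, pair with target mRNAs and lower their translation and stability. miR-26, miR-22, miR-191 and miR-425 are found in most mouse tissues and cultured lines, and miR-191-5p is often used as a reference when miRNA assays are normalised. miR-210 is the best known miRNA induced under hypoxia, through the transcription factor HIF-1.

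The mature sequences show which of the miRNAs can share targets. They are RefSeq entries on build GRCm38.p6, read 5′ to 3′, with the seed in capitals. miR-26a-5p comes from 2 loci, at chr9:119031811-119031832 (+ strand, within the span of Ctdspl) and chr10:126995543-126995564 (+ strand, within Ctdsp2), and miR-26b-5p from chr1:74394324-74394344 (+ strand, within Ctdsp1). All 3 host genes encode small phosphatases of the RNA polymerase II C-terminal domain.
miR-26a-5p: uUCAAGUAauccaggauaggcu
miR-26b-5p: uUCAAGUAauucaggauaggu
miR-22-3p: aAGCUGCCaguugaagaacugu
miR-191-5p: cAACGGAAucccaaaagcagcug
miR-425-5p: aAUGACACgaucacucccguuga
miR-186-5p: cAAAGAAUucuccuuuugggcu
miR-140-3p: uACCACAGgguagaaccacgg
miR-210-3p: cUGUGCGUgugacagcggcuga
miR-210-5p: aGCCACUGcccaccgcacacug
miR-26a-5p and miR-26b-5p have the same seed, UCAAGUA, and differ at C11U and C21U, counted from the 5′ end of miR-26a-5p, and in length, with 22 and 21 bases. The probes of this pair may therefore each bind some of the other miRNA, and the 2 signals may not be independent. No other 2 of the 9 shown share a seed. The remaining loci are chr11:75463772-75463793 (+) within the lncRNA gene Mir22hg for miR-22-3p, chr9:108568325-108568347 (+) for miR-191-5p and chr9:108568789-108568811 (+) for miR-425-5p, chr3:157544285-157544306 (+) within Zranb2 for miR-186-5p, and chr8:107551288-107551308 (+) within Wwp2 for miR-140-3p. The miR-191 and miR-425 hairpins lie 384 bases apart, both within the span of Dalrd3. miR-210-3p lies at chr7:141221407-141221428 (- strand) and miR-210-5p at chr7:141221445-141221466 (- strand). miR-185-5p is named only. Both arms of miR-210 were measured, and its hairpin is shown with the 5p arm and then the 3p arm in capitals.
miR-210 hairpin: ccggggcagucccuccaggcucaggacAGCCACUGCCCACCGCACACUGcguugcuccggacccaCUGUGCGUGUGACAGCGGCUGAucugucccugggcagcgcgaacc
The G+C content of the 9 mature sequences ran from 33.3% in miR-26b-5p to 68.2% in miR-210-5p, with a median of 47.8%. Over the 774 of 910 probes detected on both arrays that matched a RefSeq entry, the median was 57.1%.

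The arrays gave signal above their blank spots for 958 miRNA probes in Fam222B-siRNA cells and 1219 in control-siRNA cells. Net signal is the spot median minus the mean of the array's 896 blank spots, in intensity units, and is the level used throughout. Repeated control spots set the only available error: 5 bright control probes, each printed 8 times, had a pooled coefficient of variation of 4.78% on the Fam222B-siRNA array and 4.67% on the control-siRNA array. The spot SD given below combines this with the spread of the blanks (SD 1.66 units in Fam222B-siRNA and 1.54 in control-siRNA) and covers spread within an array only, not spread between cultures, RNA preparations or hybridisations. A difference is the log2 ratio of net signals, Fam222B-siRNA over control-siRNA, with no scaling. On that scale the 910 probes detected on both arrays had a median of -0.12, and the 2 control probes that the files name spike controls had differences of -0.15 and -0.19, so a value is read beside these. Of 17 marker miRNAs of other cell types, 7 were detected on both arrays, 8 in control-siRNA cells alone and 2 on neither. Those 8 gave 2.95 to 5.63 units in control-siRNA cells, with a spot SD of 1.54 to 1.56, so they lay near the detection threshold. That threshold was a spot value of 72.6 units on the control-siRNA array, with a blank mean of 70.3. On the Fam222B-siRNA array the 2 values were 72.5 and 69.9. Over all 1900 probes, 50.4% were detected in Fam222B-siRNA cells and 64.2% in control-siRNA cells, with 910 detected on both arrays. miR-122-5p of liver was detected on neither array, and the epithelial miR-200c-3p and miR-141-3p were detected in control-siRNA cells alone, at 2.95 and 3.05 units. The 5 blood markers summed to 12.9 net units in Fam222B-siRNA cells and 27.9 in control-siRNA cells, and the 3 muscle markers to 3.78 and 11.9. miR-126a-3p of endothelium gave 12.2 and 11.9 units and miR-128-3p of neurons 8.13 and 11.4. The melanocyte marker miR-211-5p gave 326 units in Fam222B-siRNA cells and 264 in control-siRNA cells, and its relative miR-204-5p 30.2 and 36.3. The fibroblast and smooth muscle miRNAs miR-143-3p and miR-145a-5p were also present, at 112 and 42.9 units in Fam222B-siRNA cells, with 140.0 and 54.0 units in control-siRNA cells, and the third of that list, the joint probe of miR-199a-3p and miR-199b-3p, gave 21.7 and 19.8 units. The part of these miRNAs in the results was not tested.

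All 10 miRNAs were detected on both arrays. Together they held 0.820% of the net signal of all detected probes in Fam222B-siRNA cells and 0.851% in control-siRNA cells. None of the 10 differed by 2-fold or more, where 5.49% of the 910 probes did. Among the 257 other probes within the range of mean net signal of the 10, 0 were higher and 0 lower by 2-fold. Of the 10, 8 had lower signal in Fam222B-siRNA cells, against 64.8% of all 910 probes, and their median difference was -0.16, against -0.12 for all probes. After the arrays were scaled to equal medians, 6 were below and 4 above 0 (median -0.037), against 50% of all probes below.

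**Figure D1:**
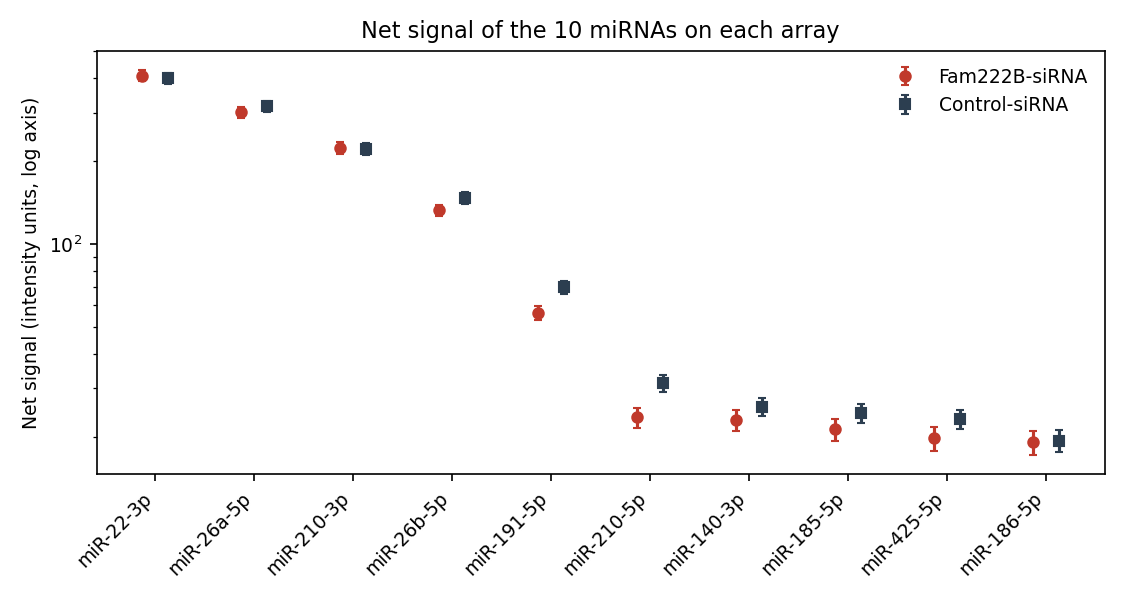
Net signal (intensity units, log axis) of the 10 miRNAs on the Fam222B-siRNA array (red circles) and the control-siRNA array (dark squares), ordered by signal in control-siRNA cells, with bars of 1 spot SD, which cover spread within an array only. The widest gaps between the points of a pair are at miR-210-5p (23.5 and 31.2 units) and miR-191-5p (56.2 and 69.6 units).

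miR-22-3p, whose hairpin lies within Mir22hg, was the brightest of the 10. It gave 408 ± 19.6 net units in Fam222B-siRNA cells and 399.8 ± 18.7 in control-siRNA cells (± spot SD, n = 1 array each), a log2 difference of 0.030 with a spot SD of 0.097. Its rank among the 1900 probes was 29 and 30. Its level thus differed by less than 1 spot SD between the arrays, and it stood 0.15 above the median of all probes. The 5p arm of the same hairpin gave 24.0 units in Fam222B-siRNA cells and 21.8 in control-siRNA cells (0.14, spot SD 0.17), so both arms were slightly higher and neither passed 1 spot SD. The 5p arm was printed in block 25, where the median of all detected probes was 0.19.

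miR-26a-5p and miR-26b-5p, which repress the histone methyltransferase Ezh2 among other targets, were also bright. miR-26a-5p gave 301 ± 14.5 units in Fam222B-siRNA cells and 316 ± 14.8 in control-siRNA cells, at ranks 43 and 40 (log2 difference -0.071, spot SD 0.097). miR-26b-5p gave 132 ± 6.54 units in Fam222B-siRNA cells and 147 ± 7.04 in control-siRNA cells, at ranks 82 and 75 (-0.15, spot SD 0.099). Both had lower signal in Fam222B-siRNA cells by under 2 spot SD, and their differences were 0.080 apart with a spot SD of 0.14. They were both printed in block 30, where the median of 31 detected probes was -0.20, below either miRNA. The opposite strands were dim: miR-26b-3p gave 6.71 units in Fam222B-siRNA cells and 8.64 in control-siRNA cells, miR-26a-2-3p was detected in control-siRNA cells alone (5.61 units), and miR-26a-1-3p on neither array.

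miR-210-3p gave 223 ± 10.8 units in Fam222B-siRNA cells and 221 ± 10.4 in control-siRNA cells, at rank 60 on each array (0.014, spot SD 0.097). The other arm of the hairpin, miR-210-5p, gave 23.5 ± 2.0 units in Fam222B-siRNA cells and 31.2 ± 2.12 in control-siRNA cells, at ranks 263 and 231. Its difference of -0.41 (spot SD 0.16) was the widest of the 10. The 2 arms shown above thus differed from each other by 0.43 in their log2 differences, with a spot SD of 0.19. Probes detected on both arrays in block 26, where miR-210-5p was printed, had a median of 0.24, opposite in sign to its own value.

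The wider set of miRNAs reported to respond to hypoxia had 14 members, 4 of them among the 10, and all 14 were detected on both arrays. Of these, 5 were higher and 9 lower in Fam222B-siRNA cells, with a median of -0.044, against 64.8% lower among all 910 probes. With equal medians the count turned to 10 higher and 4 lower, with a median of 0.074, against 50% of all probes lower. Of the 96 probes of at least 100 units on both arrays, 75 were higher on that scale, and most of the 14 were that bright. The part of brightness in this count was not tested. Without the 4 shared miRNAs the other 10 had a median of -0.034 before scaling. miR-23a-3p, which is processed from 1 transcript with miR-27a and miR-24, was at the top with 382 units in Fam222B-siRNA cells and 338 in control-siRNA cells (0.18, spot SD 0.097), and miR-210-5p was at the bottom. miR-210-5p was the only one of the 14 past 2 spot SD on the unscaled values, where 6.26% of all probes were lower by that measure. Of the 244 probes between 15 and 100 units, 36 were lower by it. With equal medians miR-210-5p was not past 2 spot SD. miR-23a-3p (0.29) and miR-27a-3p (0.24) were then past it as higher, where 7.8% of all probes were. Both were above 100 units on both arrays, and 26 of the 96 probes of that brightness were past it as higher.

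miR-191-5p gave 56.2 ± 3.16 units in Fam222B-siRNA cells and 69.6 ± 3.60 in control-siRNA cells, at ranks 146 and 127. Its log2 difference was -0.31 with a spot SD of 0.11, and its signal in Fam222B-siRNA cells was 80.8% of that in control-siRNA cells. miR-425-5p, from the neighbouring hairpin, gave 19.7 ± 1.91 units in Fam222B-siRNA cells and 23.1 ± 1.88 in control-siRNA cells, at ranks 290 and 273 (-0.23, spot SD 0.18). The products of this locus were thus both lower in Fam222B-siRNA cells, miR-191-5p by more than 2 spot SD and miR-425-5p by less, and the difference of miR-191-5p minus that of miR-425-5p was -0.076 with a spot SD of 0.21. They were printed in different blocks, 20 and 7, whose detected probes had medians of -0.040 and -0.21. Of the other arms, miR-425-3p gave 2.71 units in Fam222B-siRNA cells and 4.17 in control-siRNA cells, and miR-191-3p was detected in control-siRNA cells alone, at 2.31 units (spot SD 1.54). The spot value of miR-191-3p there was 72.59 units, against a detection threshold of 72.56.

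The 3 remaining miRNAs were all dim. miR-185-5p, whose hairpin lies within Tango2 and which is known to repress the sterol regulator Srebf2, gave 21.3 ± 1.95 units in Fam222B-siRNA cells and 24.4 ± 1.91 in control-siRNA cells (-0.20, spot SD 0.17). miR-140-3p, from a hairpin best known in cartilage, gave 23.0 ± 1.99 units in Fam222B-siRNA cells and 25.7 ± 1.95 in control-siRNA cells (-0.16, spot SD 0.17). miR-186-5p gave 19.1 ± 1.89 units in Fam222B-siRNA cells and 19.4 ± 1.78 in control-siRNA cells (-0.023, spot SD 0.20). All 3 lay within 2 spot SD, and their ranks on the 2 arrays were 275 and 262 for miR-185-5p, 266 and 256 for miR-140-3p and 299 and 296 for miR-186-5p. miR-140-3p was printed in block 18, where the median was 0.12. The same block held miR-140-5p, which gave 10.2 units in Fam222B-siRNA cells and 12.6 in control-siRNA cells (-0.30, spot SD 0.31). miR-185-3p gave 5.65 units in Fam222B-siRNA cells and 6.19 in control-siRNA cells (-0.13, spot SD 0.56), and miR-186-3p was detected in control-siRNA cells alone, at 2.37 units (spot SD 1.54). The spot value of miR-186-3p there was 72.65 units, against a detection threshold of 72.56.

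**Figure D2:**
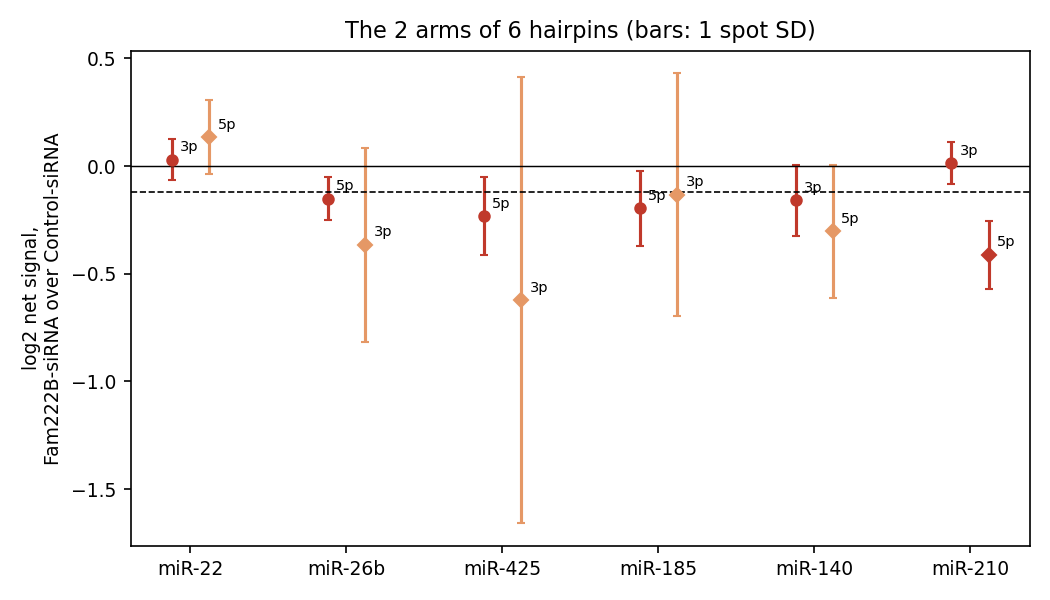
Log2 difference in net signal, Fam222B-siRNA over control-siRNA, of the 2 arms of the 6 hairpins with both arms detected on both arrays. Red marks are among the 10 miRNAs and orange marks are the other arm, bars are 1 spot SD, and the dashed line is the median of all 910 probes (-0.12). The arms of miR-210 are the only pair more than 2 spot SD apart. The spot SD of the gap runs from 0.19 for miR-210 to 1.05 for miR-425.

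Set against the spot SD, 2 of the 10, miR-191-5p and miR-210-5p, were lower by more than 2 spot SD, where 6.26% of all 910 probes were. None of the 10 was higher by that measure, where 3.74% of all probes were. Of the 257 other probes within the range of mean net signal of the 10, 35 were lower and 13 higher by it. Of the 244 probes between 15 and 100 units, where miR-191-5p and miR-210-5p lay, 36 were lower by it. With the arrays scaled to equal medians, miR-191-5p was at -0.19 and miR-210-5p at -0.29, neither past 2 spot SD, where 1.76% of all probes were lower and 7.8% higher. The call for both therefore rests on the scale between the arrays. Scaled to the spike controls they were at -0.14 and -0.24, and miR-22-3p, at 0.20, was higher by more than 2 spot SD. The share of all probes past 2 spot SD on the spike scale was not counted. Either scaling shifts each log2 difference by the same amount, so neither could change the order of the 10. Before scaling miR-22-3p was at 0.030. The 96 probes of 100 units or more then centred on 0.018, with an upper quartile of 0.10. The spike-scale call therefore does not set miR-22-3p apart from other bright probes. Of the 8 pairs set side by side (miR-26a-5p with miR-26b-5p, miR-191-5p with miR-425-5p, and the arms of 6 hairpins), 7 differed by under 2 spot SD, and the exception was miR-210. For the arms of miR-140, miR-26b, miR-185 and miR-425 the spot SD of the gap ran from 0.35 to 1.05, against 0.19 for miR-210. Only a wide gap could have passed 2 spot SD in those pairs, so their count does not show that the arms moved alike.

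**Figure D3:**
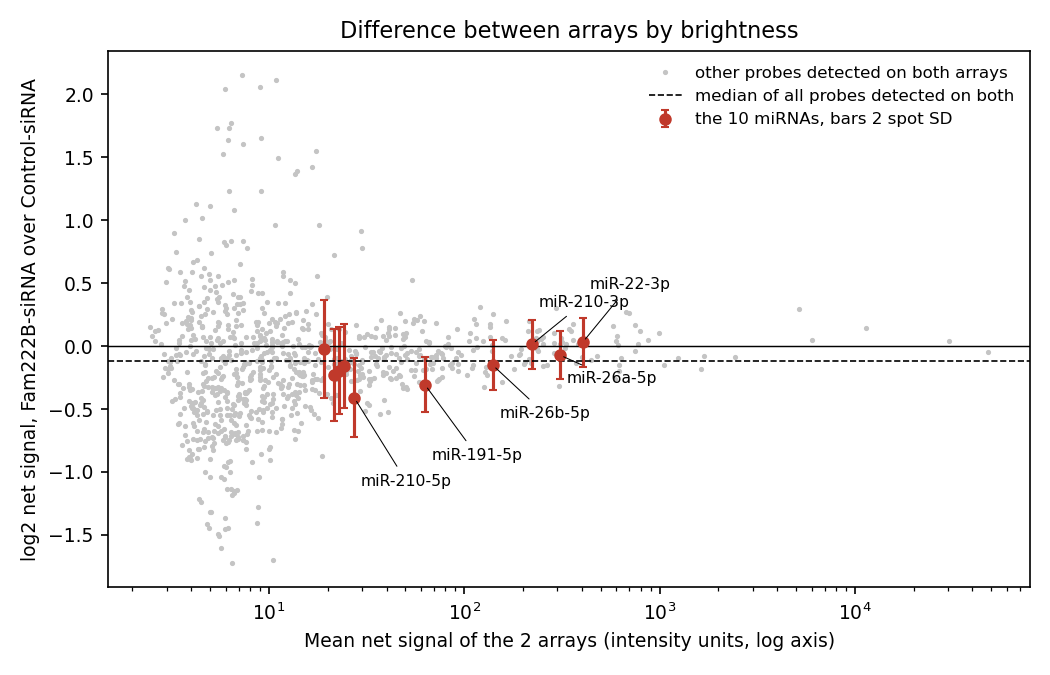
Log2 difference between the arrays, Fam222B-siRNA over control-siRNA, against the mean net signal of the 2 arrays (log axis). Grey points are the other probes detected on both arrays, red circles are the 10 miRNAs with bars of 2 spot SD, and the dashed line is the median of all 910 probes (-0.12). The spread of the grey points widens below 15 units, and the 10 miRNAs lie within it.

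The differences are also given by brightness. The 4 miRNAs of at least 100 units on both arrays (miR-22-3p, miR-26a-5p, miR-210-3p and miR-26b-5p) had differences from -0.15 to 0.030 and a median of -0.029, and the 96 probes of that brightness on the arrays had a median of 0.018 with quartiles of -0.096 and 0.10. The 6 dimmer miRNAs were all lower in Fam222B-siRNA cells, from -0.41 to -0.023 with a median of -0.21, and the 244 probes between 15 and 100 units had a median of -0.10 with quartiles of -0.23 and 0.028. Of those 244 probes 72.1% were lower. The part of brightness in the differences of the 6 was not tested.

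**Figure D4:**
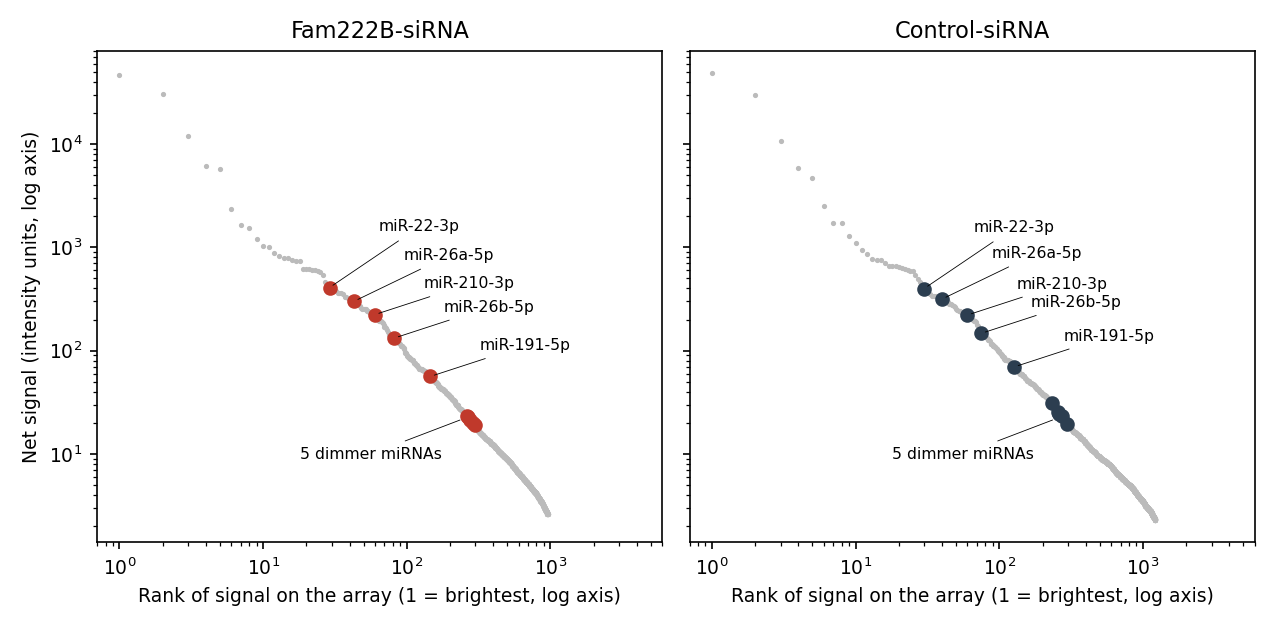
Net signal (intensity units, log axis) against rank of signal (1 is the brightest, log axis) for detected probes on the Fam222B-siRNA array (left) and the control-siRNA array (right). Filled circles mark the 10 miRNAs. On each array miR-22-3p, miR-26a-5p, miR-210-3p, miR-26b-5p and miR-191-5p follow each other in that order, and the other 5 lie together between ranks 231 and 299.

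The order of signal was the same on both arrays for the 5 brightest and for the dimmest, miR-186-5p. miR-210-5p, miR-140-3p, miR-185-5p and miR-425-5p also kept their order between these, but in Fam222B-siRNA cells neighbours from miR-210-5p down to miR-186-5p differed by less than 1 spot SD. Probes differ in how well they bind, so this is an order of signals and not of abundance. Ranks moved by 32 places for miR-210-5p, 19 for miR-191-5p and 17 for miR-425-5p, all toward a lower rank in Fam222B-siRNA cells, and by 13 or fewer for the other 7.

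By distance over the 2 log2 net signals, the probes nearest to miR-26a-5p were miR-24-3p, at 312 units in Fam222B-siRNA cells and 308 in control-siRNA cells, and miR-21a-5p, at 319 and 313. Nearest to miR-22-3p were miR-7059-5p and miR-30d-5p, and nearest to miR-210-3p were miR-6988-5p and miR-7687-5p. miR-191-5p was nearest to miR-128-2-5p, at 57.3 units in Fam222B-siRNA cells and 65.4 in control-siRNA cells (-0.19, spot SD 0.11), and miR-7047-5p, at 59.9 and 68.0 (-0.18, spot SD 0.11). This likeness spans 2 arrays and says only that the signals were close. Seeds were shared with 2 further miRNAs on the array. miR-489-3p, with the seed of miR-425-5p, was detected in control-siRNA cells alone at 2.96 units, and miR-497b, with the seed of miR-140-3p, gave 5.25 units in Fam222B-siRNA cells and 3.27 in control-siRNA cells (0.68, spot SD 0.82).

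Of the 10, 5 are among 13 miRNAs often used as references in miRNA assays, and all 13 were detected on both arrays. Of these, 2 were higher and 11 lower in Fam222B-siRNA cells, against 64.8% lower among all probes. Their median was -0.080, and the 8 references outside the 10 had a median of -0.058. miR-25-3p was at the top with 96.1 units in Fam222B-siRNA cells and 87.4 in control-siRNA cells (0.14, spot SD 0.10), and miR-320-3p at the bottom with 17.8 and 23.8 (-0.42, spot SD 0.19). miR-191-5p and miR-320-3p were the 2 references past 2 spot SD as lower before scaling, where 6.26% of all probes were. Of the 244 probes between 15 and 100 units, 36 were. With equal medians 7 of the 13 were above 0 and 6 below, against 50% of all probes below, and neither of those 2 was past 2 spot SD. On that scale let-7a-5p (0.22) and miR-25-3p (0.25) were past it as higher, where 7.8% of all probes were. Of the 96 probes of at least 100 units on both arrays, such as let-7a-5p, 26 were. Of the 244 probes between 15 and 100 units, such as miR-25-3p, 24 were.

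**Figure D5:**
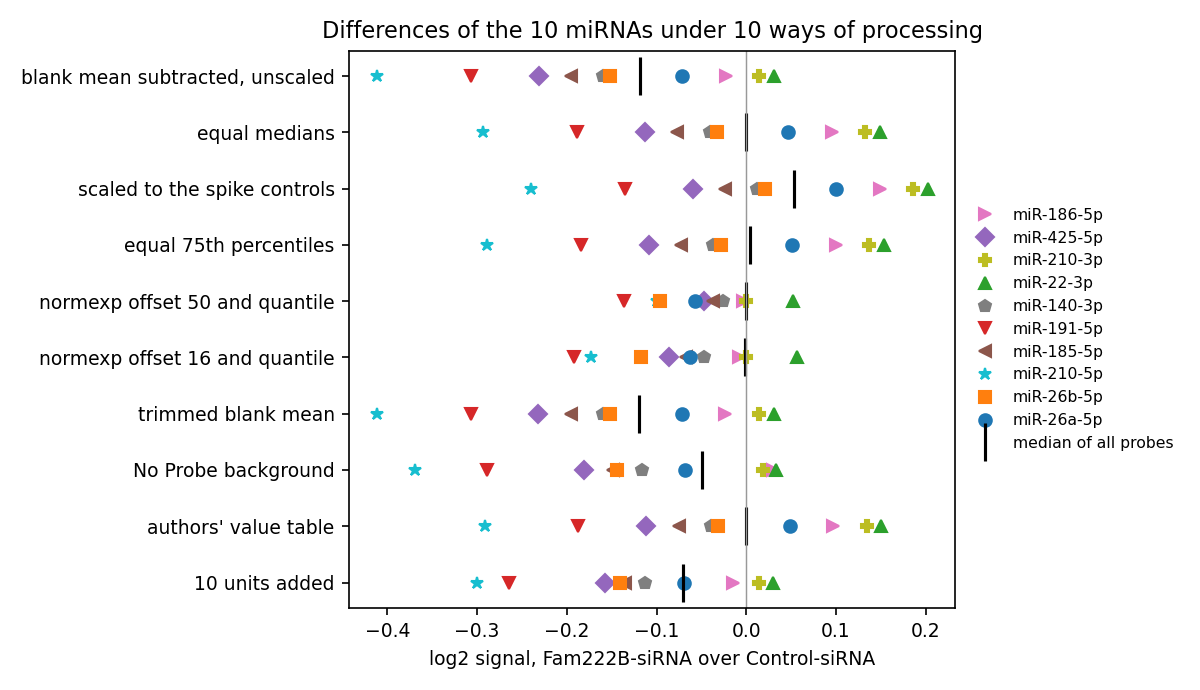
Log2 differences of the 10 miRNAs (coloured marks), Fam222B-siRNA over control-siRNA, under 10 ways of processing the same arrays, with the median of all probes detected on both arrays as a black bar (in the authors' deposited table, all probes listed on both). The marks move left and right with the scale. miR-191-5p and miR-210-5p lie at the low end and miR-22-3p at the high end in each of these 10. Ways that only rescale the arrays, such as equal medians or the spike controls, shift each mark equally and cannot change this order. The authors' table, in a straight line with the spot median, comes close to such a shift. The order could change only with another background, normexp or added units. The order fails with the files' own background column, which is not drawn and gave 5 of the 10 a value, with miR-26b-5p lowest (-2.18), miR-186-5p highest (0.93) and miR-22-3p at -0.58.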

How the data were processed

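Total RNA of 2 cultures was labelled with Cy5 and hybridised to a Toray 3D-Gene miRNA array, per the labels' protocols. The deposited scanner files hold each of 3200 spots' median intensity, from which no background had been taken off, per the file headers. Which scanner and software were used is not given in the sources used here. The authors' deposited value table was an intensity scale in a straight line with the spot median (slopes of 3.69 for Fam222B-siRNA and 3.40 for control-siRNA) and served as an alternative. Its column medians were 34.6 and 25, its scale is linear, and it is not centred per miRNA.

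Net signal was the spot minus the mean of the blank spots. Detection required a spot above the blank mean by over 2 SD, both taken after trimming 5% of blanks from either tail (above 72.5 units for Fam222B-siRNA and 72.6 for control-siRNA). Per array 1 spot was left out for an NG flag, and none was among the 10. Groups came from the labelled treatment. With 1 array per group no test was run, and precision is limited by the array number. Values were computed with Python 3.11.15 and pandas 2.3.3, and normexp with limma 3.58.1 in R 4.3.3. The steps were tested on simulated arrays.

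The miRNAs, lists and alternatives were chosen with earlier results of these data known. All 10 miRNAs, the other arm of each hairpin, probes that share a seed, the 2 nearest probes of 4 of the miRNAs and the ends of the hypoxia and reference lists are named. Alternatives changed the scaling, background, detection, fold threshold, source of values, or left out 4 array blocks.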

Additional observations from a re-analysis of the deposited data

How the results depend on the processing

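With 1 array per group no replicate could be left out. No paired analysis was possible because each group had 1 array. The median difference of the 10 miRNAs, -0.16, was 0.016 when scaled to the spike controls, where all probes had a median of 0.053, and -0.69 with the files' own background column, where 5 of the 10 had no value because that column was at or above the spot on an array. With that column 1 of the remaining 5, miR-26b-5p, passed 2-fold (-2.18), and 187 of 725 probes did. No other alternative put any of the 10 past 2-fold or 1.5-fold. The count of all probes past 2-fold, 50, was 0 with normexp at either offset or with 10 units added, 5 with detection at 5 SD, and 30 without blocks 17, 18, 25 and 26. At 1.5-fold it was 161. Those blocks, picked in earlier work for dim spots that gained signal, hold miR-140-3p and miR-210-5p. Without them the other 8 had a median of -0.11 and all probes -0.14, so the 8 stood 0.030 from all probes, and the 10 stood -0.037 from them. With equal medians, equal 75th percentiles or the authors' deposited table, the sign turned for 2 of the 10 (miR-26a-5p at 0.047 and miR-186-5p at 0.095 with equal medians), with the spike controls for 4, with the background column for 3 of 5, and with the No Probe background for 1. miR-191-5p ran from -0.31 to -0.14 over the alternatives that gave it a value.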
